A study of Mus musculus with 4 samples.

Results

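The cytochrome P450 (Cyp) and glutathione transferase (Gst) genes were compared between Myc-depleted and control cells. The study calls these cells bronchoalveolar stem cells (BASCs). A probe set, the group of short probes that reads a transcript on the array, was a member if the platform annotation gave it a symbol that starts with Cyp and a digit, or with Gst, the class letter a, m, p, t, o or z and a digit. Cyp51 was left out. The rule found 125 of 45037 probe sets, 99 of P450 genes and 26 of transferase genes. Of these, 121 named 1 gene and 4 named several genes, and together they covered 91 genes, 72 P450 and 19 transferase genes. A further probe set, whose first symbol is Gm3776 and whose others are Gsta2 and Gsta1, lies outside the rule.

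RNA was measured on 4 mouse genome arrays, 2 of Myc-depleted cells and 2 of control cells. Both groups were cultures of cells from the lungs of ICR mice 4 to 6 weeks old, sorted as CD31-, CD45-, CD34+ and Sca-1+ and plated on irradiated mouse embryonic fibroblast feeders. For established cells the study's results describe dishes coated with collagen, while its methods describe passage onto the feeders. Whether the RNA came from cells with or without feeders is not stated. By the treatment protocol in the labels the Myc-depleted cells were stable lines that carried a lentiviral short hairpin RNA against c-Myc and had passed through puromycin selection, and the labels do not say which hairpin. The controls are called wild type by the study, and neither a control virus nor selection is stated for their arrays, so depletion cannot be told apart from infection and selection. Separate cultures are not stated for the arrays of a group, so p-values cover the variation among these 4 arrays alone, and that may be technical. All levels are log2 expression values as deposited, and all differences are Myc-depleted minus control on the log2 scale. Myc, the depleted transcription factor, had levels of 8.35 and 8.50 on the Myc-depleted arrays, against 9.21 and 9.69 on the control arrays. Both Myc-depleted arrays lay below both controls, with a difference of -1.02 (SE 0.21), which left 49.2% of the control level (limma adjusted p = 0.363).

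Cytochrome P450 enzymes are haem proteins that insert oxygen into drugs, inhaled chemicals, steroids, retinoids and fatty acids, and most sit in the endoplasmic reticulum, where they take electrons from a reductase and from cytochrome b5. Glutathione transferases join the tripeptide glutathione to reactive molecules, often those that a P450 has made, and so prepare them for export. In the lung the club cells of the airway are known as the P450-rich cells, and receptors such as the aryl hydrocarbon receptor and the oxidant sensor Nrf2 are known to induce members of both families.

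The stretches before Cyp4v3, Gstt3 and Gstt1, whose unadjusted p was under 0.05 in every alternative analysis, before Cyp2j6, the P450 gene with the largest difference, and before Gstm5 for its oxidant-response motif, are shown first, because Myc binds DNA at E-boxes and the other motifs belong to known regulators of these families. The level of Cyp2j6 was high enough to test only through its control arrays. Each line gives the 250 bases before the start of the gene from RefSeq (GRCm38.p6), 5′ to 3′ along the gene, with motif matches in capitals. The windows are chr4:96553652-96553901 on the minus strand for Cyp2j6, chr8:45333164-45333413 on the minus strand for Cyp4v3 and chr3:107895604-107895853 on the plus strand for Gstm5. Those of Gstt3 and Gstt1 are chr10:75781423-75781672 and chr10:75797732-75797981, both on the minus strand.
Cyp2j6: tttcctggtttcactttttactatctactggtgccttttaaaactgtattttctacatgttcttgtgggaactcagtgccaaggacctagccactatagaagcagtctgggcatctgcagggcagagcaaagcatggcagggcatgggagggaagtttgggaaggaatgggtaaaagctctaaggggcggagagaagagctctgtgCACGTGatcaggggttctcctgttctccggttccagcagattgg
Cyp4v3: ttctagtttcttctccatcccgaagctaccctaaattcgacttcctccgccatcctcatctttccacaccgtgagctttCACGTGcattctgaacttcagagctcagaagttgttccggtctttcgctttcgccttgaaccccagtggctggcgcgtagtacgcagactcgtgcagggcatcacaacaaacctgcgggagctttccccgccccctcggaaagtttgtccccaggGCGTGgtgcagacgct
Gstm5: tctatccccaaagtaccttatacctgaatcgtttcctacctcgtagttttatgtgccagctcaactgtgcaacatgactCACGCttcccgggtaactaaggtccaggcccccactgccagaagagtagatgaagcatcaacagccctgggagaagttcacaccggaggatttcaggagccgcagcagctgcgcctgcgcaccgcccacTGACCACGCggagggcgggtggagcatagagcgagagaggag
Gstt3: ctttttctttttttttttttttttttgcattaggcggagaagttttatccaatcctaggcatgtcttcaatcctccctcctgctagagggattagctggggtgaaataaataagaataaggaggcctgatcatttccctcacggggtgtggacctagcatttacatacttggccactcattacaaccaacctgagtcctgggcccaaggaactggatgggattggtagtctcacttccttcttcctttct
Gstt1: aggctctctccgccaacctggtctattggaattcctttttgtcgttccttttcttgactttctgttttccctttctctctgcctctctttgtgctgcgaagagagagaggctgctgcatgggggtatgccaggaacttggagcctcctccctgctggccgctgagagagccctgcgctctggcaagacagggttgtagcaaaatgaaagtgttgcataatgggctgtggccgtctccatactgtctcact
The capitals mark the E-box CACGTG in Cyp2j6 and Cyp4v3, the dioxin response core GCGTG, or its reverse complement CACGC, in Cyp4v3 and Gstm5, and the antioxidant response motif TGACNNNGC in Gstm5, where a dioxin core on the other strand overlaps it. The search covered both strands. Windows were found for 30 of the 35 member genes tested, and Cyp2j6 and Cyp4v3 were the 2 that held CACGTG, 44 and 171 bases before the start. That is 6.67% of the 30 genes, beside 6.02% of all 32851 windows. GCGTG stood in 11 of the 30 (36.7%), beside 28.2% of all windows, and TGACNNNGC in 2 of the 30, Gstm5 and Gstm7 (6.67%), beside 10.2%. None of the 3 motifs stood in the windows of Gstt3 and Gstt1. A match is a string of letters, not a measured binding site.

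Levels of 47 member probe sets, 29 of P450 and 18 of transferase genes, were high enough to test, meaning a mean over the 4 arrays of at least log2 5.08. Of the 47, Cyp2j6 passed only through its control arrays and Gstp3 only through its Myc-depleted arrays. The tested probe sets gave 35 genes with a probe set of their own, 21 P450 and 14 transferase genes, and a gene is represented by its brightest probe set. No member passed the adjusted threshold in limma. The count was 0 of 47, beside 0 of 27022 probe sets on the whole array (0%), and the smallest adjusted p among the members was 0.203. At an unadjusted limma p under 0.05, 11 of the 47 were higher in Myc-depleted cells (23.4%), beside 5.63% of all probe sets tested, and 1, the Cyp2j6 probe set, was lower (2.13%), beside 4.46%. With a fold above 2 as well, 2 were higher and 1 was lower, beside 0.651% and 0.518% of all probe sets tested. Both Myc-depleted arrays lay above both control arrays for 18 of the 47 (38.3%), beside 22.5% of all probe sets tested, and below both for 3 (6.38%), beside 18.5%.

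Of the genes higher at an unadjusted limma p under 0.05, most were transferases. By gene, 12 of 14 transferases had a positive difference, with a median of 0.31 (quartiles 0.04 and 0.71), and 7 had an unadjusted p under 0.05, all higher (Gsta4, Gstm1, Gstm2, Gstm4, Gstm5, Gstt1 and Gstt3). Of the P450 genes 15 of 21 were positive, with a median of 0.10 (quartiles -0.06 and 0.23). At that p 2 were higher (Cyp1b1 and Cyp4v3) and 1 was lower, Cyp2j6, which was tested only through its controls. Over all 12589 genes tested the median was 0.02 (quartiles -0.13 and 0.17), 54.0% were positive, and 6.96% were higher and 5.23% lower at that p. Groups did not overlap for 7 transferase genes, all higher, and for 9 P450 genes, of which 7 were higher and 2 lower. Over all genes these shares were 26.6% higher and 20.8% lower. The transferase genes were also brighter, with a median level of 8.06 in Myc-depleted and 7.51 in control cells. For the P450 genes these levels were 5.65 and 5.58. With a stricter filter on low values, which left fewer and brighter genes, the median differences were 0.345 for P450 and 0.44 for transferase genes. Whether the families differ from each other was not tested, nor was the part of brightness.

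**Figure D1:**
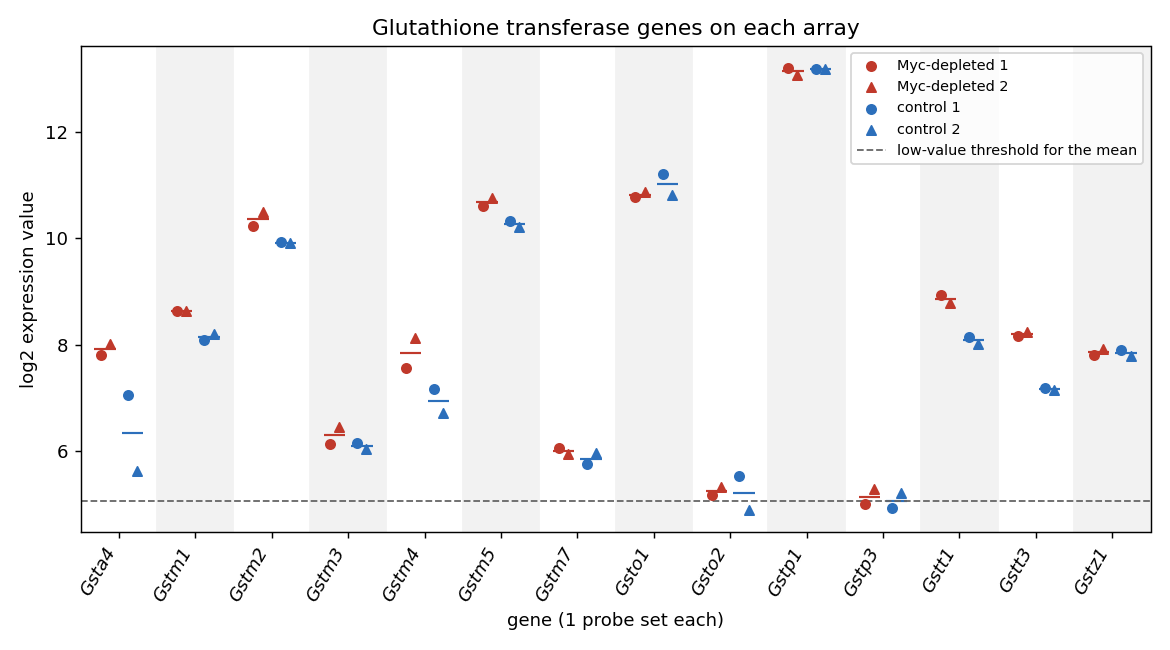
Log2 expression value (vertical axis) of the 14 transferase genes tested, 1 probe set each, on Myc-depleted arrays (red) and control arrays (blue), with circles for replicate 1, triangles for replicate 2, short lines for group means and a dashed line at the low-value threshold of 5.08. Red points lie above blue points without overlap for Gsta4, Gstm1, Gstm2, Gstm4, Gstm5, Gstt1 and Gstt3, and Gstp1 lies near 13.2 on all arrays.

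The theta class, which acts on small halogenated molecules, had the transferase genes with the smallest p. Gstt3 was at 8.17 and 8.24 on the Myc-depleted arrays, against 7.20 and 7.16 on the control arrays. Its difference was 1.02 (SE 0.11, 95% interval 0.71 to 1.33), a 2.03-fold higher level (limma adjusted p = 0.263). The groups lay far apart relative to the gaps within them. Gstt1 was at 8.95 and 8.79 on the Myc-depleted arrays, against 8.14 and 8.03 on the control arrays. It was 1.72-fold higher, with a difference of 0.78 (SE 0.13, limma adjusted p = 0.331). These genes stand next to each other on chromosome 10, followed by Gstt4 and Gstt2 with no other coding gene between them. Neither of those was bright enough to test. Gstt4 read 5.06 and 5.05 on the Myc-depleted arrays, against 4.81 and 4.80 on the control arrays, and Gstt2 read 4.47 and 4.22, against 4.57 and 4.46.

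Gsta4, the alpha-class enzyme known for clearing 4-hydroxynonenal, a product of lipid peroxidation, had the largest difference among the 35 genes tested and the largest error. It stood at 7.81 and 8.02 on the Myc-depleted arrays, against 7.07 and 5.63 on the control arrays. The difference was 1.57 (SE 0.52, 95% interval 0.12 to 3.01), or 2.96-fold (limma adjusted p = 0.470). Both Myc-depleted arrays were higher than both controls, but the size depended on the control array, being 0.85 without control replicate 2 and 2.28 without control replicate 1. Gsta2, an alpha-class enzyme known from liver and induced by oxidants, was not tested. It read 4.72 and 4.48 in Myc-depleted cells, against 6.41 and 4.45 in control cells, and so was high on control replicate 1 alone. The probe set that lists Gm3776, Gsta2 and Gsta1 showed the same single high array, with 5.31 and 5.84 against 8.31 and 5.34 (difference -1.25, limma adjusted p = 0.773).

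All 6 mu-class genes tested had positive differences, with a median of 0.43, and 4 of them had an unadjusted p under 0.05. Over all genes tested 54.0% were positive and 6.96% were higher at that p. Mu-class enzymes conjugate a wide range of electrophiles, among them epoxides of aromatic hydrocarbons. Gstm4 was at 7.57 and 8.13 on the Myc-depleted arrays, against 7.17 and 6.73 on the control arrays (difference 0.90, SE 0.27, 1.87-fold, limma adjusted p = 0.444). Its arrays varied within both groups, and the groups stayed apart by 0.41, the gap between Myc-depleted replicate 1 and control replicate 1. Gstm1 was at 8.64 and 8.64, against 8.10 and 8.21, a difference of 0.48 (SE 0.12, limma adjusted p = 0.389). Its second probe set read 8.05 and 8.05, against 7.51 and 7.40 (difference 0.60, limma adjusted p = 0.350).

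Of the remaining Gstm1 probe sets the first, like the brightest probe set above, can share sequence with related genes. Neither of the remaining probe sets overlapped between groups. The first read 6.25 and 6.51 in Myc-depleted cells, against 6.11 and 6.08 in control cells (difference 0.28, limma adjusted p = 0.601). The other read 5.63 and 5.92, against 5.48 and 5.34 (difference 0.36, limma adjusted p = 0.558). All 4 probe sets of the gene therefore had the same sign. Gstm2 was at 10.2 and 10.5 on the Myc-depleted arrays, against 9.94 and 9.91 on the control arrays (difference 0.44, SE 0.14, limma adjusted p = 0.460). Gstm5 was at 10.6 and 10.8, against 10.3 and 10.2 (difference 0.42, SE 0.13, limma adjusted p = 0.447). In both genes the controls were close together and both Myc-depleted arrays lay above them.

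The mu-class genes are closely related neighbours, standing in the order Gstm5, Gstm7, Gstm6, Gstm3, Gstm2, Gstm1 and Gstm4 on chromosome 3 with no other coding gene between them. Probes of one may read another, so how the differences divide among them is uncertain, and the members are not independent readings. Gstm3 and Gstm7 overlapped between groups, with differences of 0.20 and 0.14. Gstm6 was not tested, reading 4.38 and 4.35 in Myc-depleted cells, against 4.21 and 4.01 in control cells.

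The transferases of the pi, omega and zeta classes showed no such separation. Gstp1, the pi-class enzyme of many epithelial and cultured cells, was at 13.2 and 13.1 on the Myc-depleted arrays, against 13.2 and 13.2 on the control arrays (difference -0.04, 95% interval -0.37 to 0.29, limma adjusted p = 0.95). It was near the top of the range of values on the array, 2.89 to 14.6. Gsto1, an omega-class enzyme that reduces dehydroascorbate, was at 10.8 and 10.9, against 11.2 and 10.8 (difference -0.20, 95% interval -0.70 to 0.30, limma adjusted p = 0.792). Only control replicate 1 stood off the others. Its second probe set gave 9.67 and 9.66, against 10.0 and 9.59 (difference -0.15). Gstz1, which isomerises maleylacetoacetate in tyrosine breakdown, was at 7.82 and 7.93, against 7.90 and 7.80 (difference 0.02, 95% interval -0.31 to 0.36). Gstp3 and Gsto2 lay near the low-value threshold and differed by 0.07 and 0.03. The intervals of Gstp1 and Gstz1 end short of the differences of Gstt3 and Gstt1, and the differences between these genes were not tested.

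**Figure D2:**
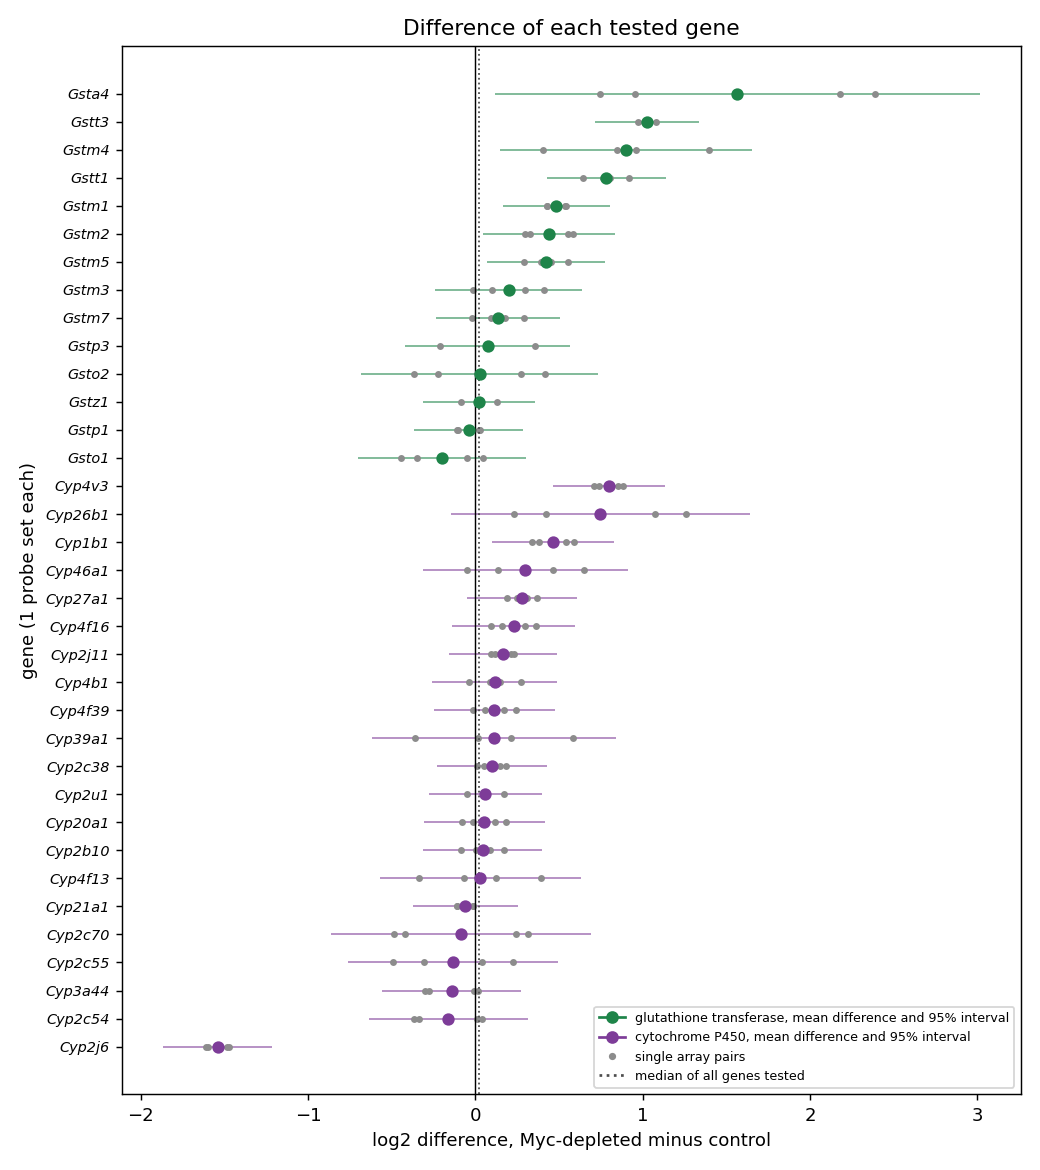
Difference on the log2 scale, Myc-depleted minus control (horizontal axis), of the 14 transferase genes (green, above) and the 21 P450 genes (purple, below), as the mean with its 95% limma interval, with grey points for the 4 single array pairs and a dotted line at the median of all genes tested, 0.02. Gstt3, Gstt1, Gstm1 and Cyp4v3 lie above 0.4 with short intervals, and Gsta4 has the longest interval, 0.12 to 3.01. Cyp2j6, tested only through its controls, lies apart at -1.54.

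Among the P450 genes tested Cyp2j6 had the largest difference, and it had the smallest p of all members tested. The Cyp2j enzymes are known for turning arachidonic acid into epoxides. Cyp2j6 was at 4.46 and 4.47 on the Myc-depleted arrays, against 5.94 and 6.07 on the control arrays. Both Myc-depleted arrays lay well below both controls, with a difference of -1.54 (SE 0.12, 95% interval -1.87 to -1.21), as the arrays read it (limma adjusted p = 0.203). Since its Myc-depleted mean of 4.46 is under the low-value threshold, it was tested only through its controls, and how far it lay above background in Myc-depleted cells is not known. No fold is given for that reason. Its second probe set was too dim to test, at 4.65 and 4.75 in Myc-depleted cells, against 4.79 and 4.96 in control cells, and the difference there was -0.18. The gene lies in a row of 7 Cyp2j genes on chromosome 4. Of that row Cyp2j11 was also tested, and its difference was 0.16.

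Cyp4v3, the mouse counterpart of a human fatty acid hydroxylase gene mutated in a crystalline retinal dystrophy, had the next smallest p among the P450 genes. It was at 7.52 and 7.55 on the Myc-depleted arrays, against 6.81 and 6.66 on the control arrays, a difference of 0.80 (SE 0.12, 1.74-fold, limma adjusted p = 0.308). Its other probe set read 5.84 and 5.90, against 5.12 and 5.26 (difference 0.68, limma adjusted p = 0.340). The probe sets thus separated the groups alike, though the brighter is of a type that can share sequence with other transcripts. The 5 Cyp4 genes tested, a family that hydroxylates the ends of fatty acids, all had positive differences, with a median of 0.12. Over all genes tested 54.0% were positive, with a median of 0.02. Of the 5, Cyp4b1, Cyp4f13 and Cyp4f39 overlapped between groups. Cyp4f16 was at 7.31 and 7.24, against 6.94 and 7.15 (difference 0.23, limma adjusted p = 0.651), but a probe set of it that can share sequence with relatives gave -0.28, with 5.20 and 5.60 against 5.76 and 5.60. Its direction is thus not settled by these probes, and a further probe set that it shares with Cyp4f37 gave -0.07.

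Cyp1b1, which oxidises oestrogens and polycyclic aromatic hydrocarbons and is known as a target of the aryl hydrocarbon receptor in cells of mesenchymal origin, was bright on every array. Its level was 13.7 and 13.5 on the Myc-depleted arrays, against 13.1 and 13.1 on the control arrays. The difference was 0.46 (SE 0.13, 1.38-fold, limma adjusted p = 0.431), and the groups did not overlap. They did overlap on its other probe sets, with 11.7 and 12.3 against 11.8 and 11.2 (difference 0.47, limma adjusted p = 0.676), and with 5.96 and 5.72 against 5.50 and 5.88 (difference 0.15). Cyp1a1 and Cyp1a2, the other hydrocarbon-oxidising members of the family and targets of the same receptor, were not bright enough to test. Cyp1a1 read 4.43 and 4.59 in Myc-depleted cells, against 4.42 and 4.53 in control cells, so its groups overlapped. The receptor gene itself, Ahr, was at 9.14 and 8.55, against 9.05 and 9.18 (difference -0.27, limma adjusted p = 0.784).

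Cyp26b1, which breaks down retinoic acid, had a wide spread in Myc-depleted cells. It was at 7.49 and 8.33 on the Myc-depleted arrays, against 7.07 and 7.26 on the control arrays (difference 0.75, SE 0.32, limma adjusted p = 0.556). The groups did not overlap, but the gap to the controls was 0.23 for one Myc-depleted array and 1.07 for the other. Cyp27a1, a mitochondrial sterol hydroxylase, was at 6.09 and 6.21, against 5.84 and 5.90 (difference 0.28, limma adjusted p = 0.548). Cyp46a1, a cholesterol hydroxylase known from brain, was at 5.95 and 5.44, against 5.30 and 5.49 (difference 0.30, limma adjusted p = 0.730), and its groups overlapped. Its size rested on Myc-depleted replicate 1, being 0.04 without it and 0.56 without Myc-depleted replicate 2.

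Cyp20a1 and Cyp2c55, the brightest tested genes of their families, overlapped between the groups. Cyp20a1, a P450 without a settled substrate, was at 10.8 and 11.0 in Myc-depleted cells, against 10.8 and 10.9 in control cells (difference 0.05, 95% interval -0.31 to 0.42). Its other probe sets gave -0.07 (7.08 and 7.22 against 7.20 and 7.24) and -0.50, where the second of these jumped between arrays of the same group (5.99 and 8.08 against 8.01 and 7.06). Cyp2c55, one of a group that oxidises drugs and fatty acids, was at 6.29 and 6.83, against 6.79 and 6.60 (difference -0.13, 95% interval -0.76 to 0.49). None of these probe sets separated the groups.

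Other families were represented by a single dim gene each. Cyp39a1, an oxysterol hydroxylase of bile acid synthesis, was at 5.36 and 5.93 in Myc-depleted cells, against 5.72 and 5.35 in control cells (difference 0.11). Cyp3a44, of the drug-oxidising Cyp3a group, was at 5.15 and 5.45, against 5.43 and 5.46 (difference -0.14). Cyp21a1, the adrenal steroid hydroxylase, was at 5.39 and 5.29, against 5.40 and 5.40 (difference -0.06). These values are within 1 log2 unit of the low-value threshold. The other 9 P450 genes tested, Cyp2b10, Cyp2c38, Cyp2c54, Cyp2c70, Cyp2j11, Cyp2u1, Cyp4b1, Cyp4f13 and Cyp4f39, had array values between 5.03 and 6.19 and differences between -0.16 and 0.16.

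**Figure D3:**
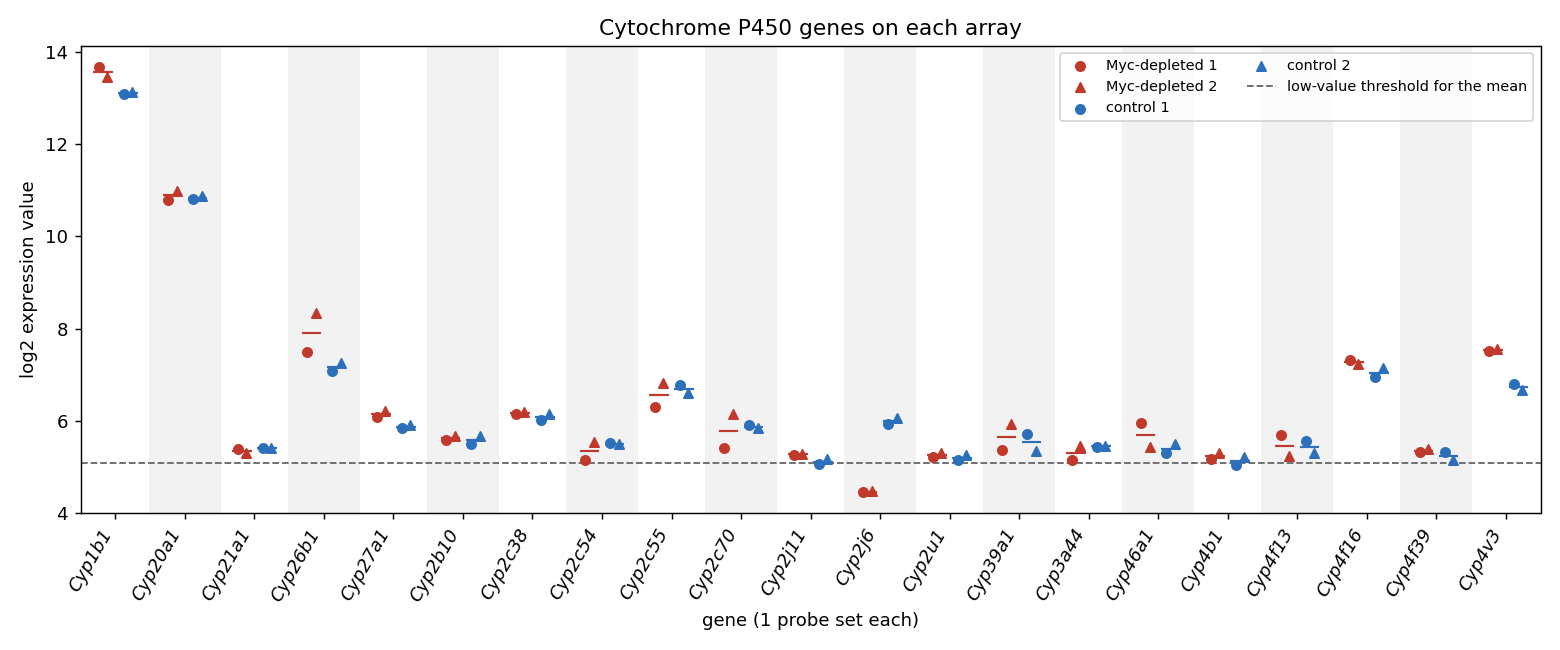
Log2 expression value (vertical axis) of the 21 P450 genes tested, 1 probe set each, on Myc-depleted arrays (red) and control arrays (blue), with circles for replicate 1, triangles for replicate 2, short lines for group means and a dashed line at the low-value threshold of 5.08. Most genes lie within 1 log2 unit of that line, Cyp1b1 and Cyp20a1 lie far above it, and the Myc-depleted points of Cyp2j6 lie below it.

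The 78 members not tested had array values from 3.44 to 6.41, and 73 of the 125 members had both group means under the threshold. The groups of 22 untested members (28.2%) did not overlap with Myc-depleted cells higher, beside 21% of all 18015 untested probe sets, and those of 7 (8.97%) with Myc-depleted cells lower, beside 13.2%. Of the 78, 4 differed by more than 0.5, and they are named here because of their values. The first is Gsta2, given above. Cyp2f2, the naphthalene-activating P450 that marks club cells in mouse lung, read 5.26 and 5.44 on the Myc-depleted arrays, against 4.58 and 4.35 on the control arrays, a difference of 0.88 without overlap. Its mean over the arrays stayed under the threshold, so it has no p. Cyp7b1, which hydroxylates oxysterols and steroids, gave the others, with 5.18 and 4.65 against 4.23 and 4.17 on one probe set (difference 0.71) and 4.99 and 3.69 against 3.79 and 3.63 on another (difference 0.63). On that probe set Myc-depleted replicate 1 alone was high. The lung P450 genes Cyp2s1 and Cyp2e1 were dim as well. Cyp2s1 read 5.10 and 5.12 in Myc-depleted cells, against 4.94 and 5.04 in control cells, and Cyp2e1 read 4.75 and 4.75, against 4.69 and 4.89.

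**Figure D4:**
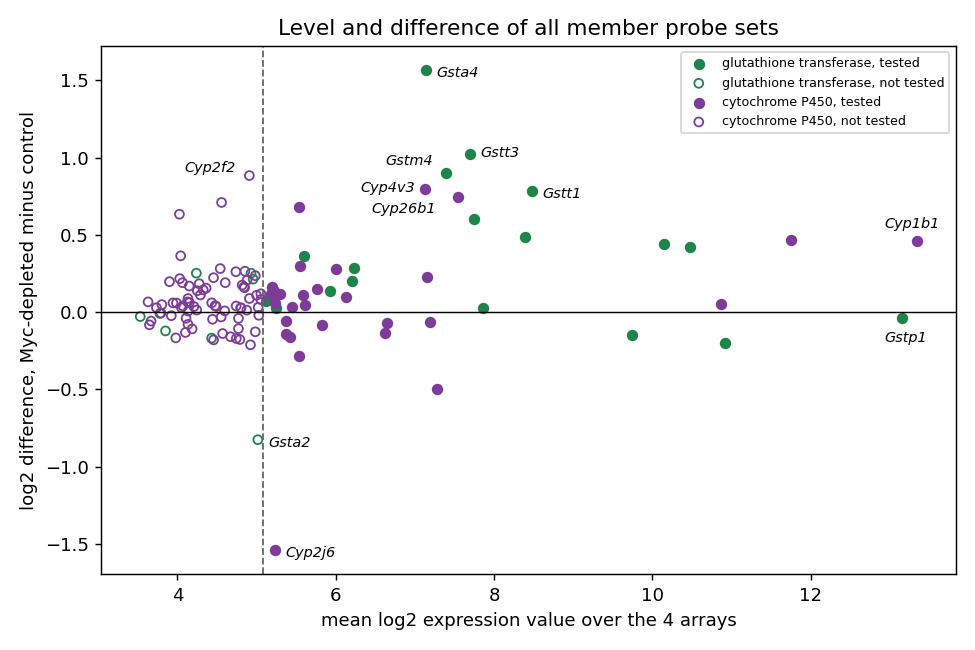
Difference on the log2 scale, Myc-depleted minus control (vertical axis), against the mean log2 expression value over the 4 arrays (horizontal axis) for all 125 member probe sets, with filled points for tested and open points for untested ones, green for transferases and purple for P450 genes, and a dashed line at 5.08. Most P450 probe sets lie left of the line with differences near 0, and Cyp2f2, at 0.88, is the highest of the untested.

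Of the genes that serve these enzymes, a list of P450 redox partners had 6 tested, Cyb5a, Cyb5b, Cyb5r3, Fdx1, Pgrmc1 and Pgrmc2. The P450 reductase was not among them. At an unadjusted limma p under 0.05, 1 of the 6 was higher. It was Cyb5a, cytochrome b5, at 11.5 and 11.6 in Myc-depleted cells, against 11.0 and 11.0 in control cells (difference 0.53, limma adjusted p = 0.382). In that list 4 differences were positive and 2 negative, with a median of 0.19. Over all genes tested 54.0% were positive, the median was 0.02, and 6.96% were higher and 5.23% lower at that p. These shares stand beside the lists below too. The mitochondrial electron carrier Fdx1 differed by 0.29 and the cytochrome b5 reductase Cyb5r3 by 0.24, neither with a p under 0.05. Among 12 receptors and sensors 8 were positive, with a median of 0.12. The aryl hydrocarbon receptor partner Arnt2 alone had such a p, with a difference of 0.32 (limma adjusted p = 0.494). Nfe2l2, which encodes Nrf2, was at 10.5 and 10.4, against 10.2 and 10.3 (difference 0.17, limma adjusted p = 0.743).

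A list of microsomal and other transferases and related genes was mixed in direction. Of its 8 genes tested, 4 were positive and 4 negative. Besides Mgst1, Mgst2, Mgst3 and Gstcd these were Clic1, Clic4, Alox5ap and Ptges, so the counts are not of transferases alone. Mgst3 differed by -0.31 and overlapped between groups. Mgst1, a membrane-bound transferase, was at 12.2 and 12.3 on the Myc-depleted arrays, against 11.4 and 11.4 on the control arrays. Its difference was 0.85 (SE 0.11, 1.80-fold, limma adjusted p = 0.282), with the arrays of a group almost equal. Mgst2 differed by 0.41 (limma adjusted p = 0.556). Gstcd, a gene with a transferase-like domain, was at 8.13 and 8.14, against 8.67 and 8.56 (difference -0.48, limma adjusted p = 0.389).

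Glutathione itself is made by Gclc and Gclm, the subunits of glutamate-cysteine ligase, and by Gss. Of 22 genes for its synthesis and use, 12 were positive and 10 negative, with a median of 0.04. At an unadjusted limma p under 0.05, 4 were higher and 3 lower, beside 6.96% and 5.23% of all genes tested. Gclm differed by 0.56 (limma adjusted p = 0.427) and Gss by 0.54 (limma adjusted p = 0.384). Gclc, the catalytic subunit, was lower, with a difference of -0.38 (limma adjusted p = 0.460), as was Gsr, which regenerates reduced glutathione, with -0.72 (limma adjusted p = 0.389). Chac1, which breaks glutathione down, was at 6.38 and 6.59 in Myc-depleted cells, against 7.71 and 8.09 in control cells (difference -1.41, limma adjusted p = 0.282). The subunits of the ligase thus lay in opposite directions.

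Of 16 targets of Nrf2 11 were positive (68.8%), beside 54.0% of all genes tested, with a median of 0.06. At an unadjusted limma p under 0.05, 2 were higher and 1 lower, beside 6.96% and 5.23% of all genes tested. They were Hmox1 and Gclm, higher, and Gclc, lower, and Gclm and Gclc are counted in the glutathione list too. Slc7a11, Pgd, Ephx1 and Nqo1 also stand in more than 1 list, so the counts of the lists are not independent. Hmox1, the haem-degrading oxygenase, was at 9.03 and 9.18, against 8.42 and 8.46 (difference 0.67, limma adjusted p = 0.340), while Nqo1, a quinone reductase, was at 8.49 and 8.30, against 8.91 and 8.19 and overlapped. In the list of 25 other oxidising and reducing enzymes 15 were positive (60%, median 0.06). At that p 2 were higher and 2 lower, beside the same shares of all genes tested. Aldh2, the mitochondrial aldehyde dehydrogenase, differed by 0.50 and the carbonyl reductase Cbr3 by 0.38, whereas the retinol-oxidising Adh7 differed by -0.73 and the lung carbonyl reductase Cbr2 by -0.70.

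The 8 other conjugating enzymes tested were 4 positive and 4 negative, with a median of 0.03. As3mt, the arsenic methyltransferase, differed by -0.93 (limma adjusted p = 0.350) and the thiopurine methyltransferase Tpmt by 0.35 (limma adjusted p = 0.479). Of 10 export pumps and carriers 4 were positive, with a median of -0.15. At an unadjusted limma p under 0.05, 1 was higher and 2 lower, beside 6.96% and 5.23% of all genes tested. The lower were Slco4a1 and the pump Abcb1b, which differed by -0.41 (limma adjusted p = 0.467). Slco2a1, the prostaglandin transporter, was at 10.6 and 10.1 on the Myc-depleted arrays, against 6.48 and 6.39 on the control arrays (difference 3.93, limma adjusted p = 0.172). Slco4a1, an organic anion carrier, lay the other way, at 5.14 and 5.16, against 6.79 and 6.71 (difference -1.60). None of the 10 passed the adjusted threshold.

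The arrays were checked against the markers of the labelled cell type and of other cells. Scgb1a1, the defining secretoglobin of club cells, read 4.41 and 4.68 in Myc-depleted cells, against 4.35 and 4.37 in control cells, and Sftpc, the defining surfactant gene of alveolar type II cells, read 4.75 and 4.72, against 4.40 and 4.35. Both were under the low-value threshold on every array, as were Cdh1 and Nkx2-1. The RNA of Scgb1a1 and Sftpc on these arrays thus did not bear out the label. By staining, the study reports both proteins in most colonies of its cultured cells. The summed level of 9 club cell markers ran from log2 8.80 to 9.42 in Myc-depleted cells and from 8.98 to 9.17 in control cells, and 5 of the 9 were tested. Aldh1a1, which many cell types express, was at 7.62 and 8.73, against 8.37 and 8.04. For 7 markers of alveolar type II cells the log2 sums were 8.77 to 8.83, against 8.60 to 8.60, with 3 tested.

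Of 9 epithelial markers 4 were tested, and their sums ran from 8.94 to 9.18 in Myc-depleted cells and from 8.63 to 8.75 in control cells. Epcam was at 7.80 and 7.52, against 6.89 and 7.12 (difference 0.65, limma adjusted p = 0.40). Its probe set is of a type that can share sequence with other transcripts. Krt8, Krt18 and Cldn7 had means under the threshold. Of 9 fibroblast markers, Vim, Col1a1, Col1a2, Col3a1, Pdgfra and Pdgfrb were bright, while Dcn, Thy1 and Lum were dim. Vim read 14.4 and 14.4 in Myc-depleted cells, against 14.5 and 14.5 in control cells, and the sums of the 9 were 15.95 to 16.23 against 16.04 to 16.20, with 8 of 9 tested. Of the 8 tested in that list 4 differences were positive and 4 negative, with a median of -0.03. At an unadjusted limma p under 0.05, 3 were higher and 1 lower, beside 6.96% and 5.23% of all genes tested. The higher were Pdgfra (1.23), Dcn (0.67) and Pdgfrb (0.44), and the lower was Thy1 (-1.26). Thy1 read 4.68 and 4.75 in Myc-depleted cells, against 6.02 and 5.92 in control cells, so its Myc-depleted level was under the low-value threshold and it was tested only through its controls. For 5 markers of alveolar type I cells, 4 of them tested, the sums were 11.93 to 11.95 in Myc-depleted cells and 11.71 to 11.74 in control cells, carried by Pdpn. Of 5 ciliated cell markers 2 were tested (sums 11.33 to 11.36 against 11.42 to 11.45), with the defining factor Foxj1 under the threshold. Markers of endothelium, blood and liver were near background, with 1 of 5, 2 of 6 and 1 of 3 tested and sums of 6.97 to 7.08, 7.53 to 7.69 and 6.53 to 6.68 in Myc-depleted cells, against 6.91 to 7.05, 7.60 to 7.61 and 6.41 to 6.60 in control cells. The part of epithelial or fibroblast markers in the differences of the transferases was not tested, and in bulk RNA fewer cells of a type and less RNA per cell cannot be told apart.

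The difference between 3′ and 5′ probe sets of the poly-A spike-ins, a measure of labelling, was 3.58 and 1.80 on the Myc-depleted arrays and 1.91 and 3.09 on the control arrays, so it split both groups. Between the low arrays, Myc-depleted replicate 2 and control replicate 1, the median difference of the transferase genes was 0.40, and between the high arrays it was 0.30. For the P450 genes these medians were 0.18 and 0.01. Over all genes tested they were 0.03 and 0.02.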

How the data were processed

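RNA of Myc-depleted and control cells was read on 2 Affymetrix mouse arrays each. The deposited values are log2 expression values that the authors made in Partek 6.4. Their methods name Robust Multichip Average and a conversion to log2, while the submitters' processing notes name GCRMA, and which one made these values was not settled. It bears most on dim probe sets, and background light compresses their differences. The sources used here name no genome build.

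Of 45101 probe sets, 64 control probe sets were left out. Probe sets with a mean over the 4 arrays under the 40th percentile (log2 5.08) were not tested, because the authors removed probe sets near background by an unstated rule. This left 27022. Gene names came from the platform annotation. Of 45037 probe sets 34945 had 1 symbol, 932 several and 9160 none, and 34741 of the first matched RefSeq (GRCm38.p6). A gene was represented by the brightest tested probe set that names it alone.

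Groups were compared by lmFit and eBayes, two-sided, of limma 3.58.1 (R 4.3.3), with Benjamini-Hochberg adjustment over all probe sets tested and a threshold of 0.05. The residual degrees of freedom were 2 and the prior 2.02. Precision is limited by the number of arrays. The fit was tested on simulated data. An ANOVA, which the methods mention without factors, was run with the group as factor.

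Full values were printed for member genes with an unadjusted p under 0.05 or a difference over 1 without overlap, for the brightest tested gene of each subfamily and for their other tested probe sets. From each pathway list up to 4 genes with the smallest p were named, with others where a role called for them. Members, lists and markers were chosen with earlier results of these data known. Alternatives covered the filter, the scaling, the variance model, the test, the replicate number, the choice of probe set and each array left out. Promoter letters and gene order came from RefSeq.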

Additional observations from a re-analysis of the deposited data

How the results depend on the processing

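No probe set passed the adjusted threshold (0 of 27022) in limma under the main or any other setting except the crossed pairing, and the methods' ANOVA called 0 as well (smallest adjusted p = 0.204), with 2726 and 2521 probe sets at an unadjusted p under 0.05. Gstt1, Gstt3 and Cyp4v3 kept an unadjusted p under 0.05 in all 12 alternatives, Cyp2j6, tested only through its controls, in all 11 that tested it, Gsta4 and Gstm1 in 9, Gstm4, Gstm5 and Cyp1b1 in 8 and Gstm2 in 7, all with the same sign. The replicate block, which pairs arrays of the same number, left 6 member probe sets higher at that p in place of 11. The labels share only a number, and same-numbered arrays deviated in opposite directions (correlation -0.766). With the numbers crossed, an alternative chosen after seeing the data, 21 probe sets were called. The counts of alternatives given above for each gene include this crossed pairing, and every gene named there had an unadjusted limma p under 0.05 in it. Myc differed by -1.02 in the methods' ANOVA too, but its unadjusted p was no longer under 0.05. With no filter on low values the members without overlap were 40 higher and 10 lower in place of 18 and 3 (32% and 8% of the 125, beside 21.9% and 16.4% of all probe sets), and the transferase median was 0.20. With the stricter filter 0 members were lower at that p and 0 were lower without overlap. The medians, over fewer and brighter genes, were 0.345 for P450 and 0.44 for transferase genes. When each array was left out in turn, members higher at that p numbered 5 to 11 (6 without control replicate 1 and 5 without control replicate 2), lower 1 to 4 (4 without Myc-depleted replicate 2), without overlap 23 to 33 higher and 5 to 12 lower, the transferase median ran from 0.25 to 0.42, and the P450 median from 0.03 (without control replicate 1) to 0.15 (without Myc-depleted replicate 1), with 0.05 without Myc-depleted replicate 2. It was 0.06 with no filter. Fewer arrays overlap less by construction. Signs turned in that series for Cyp20a1 (-0.045 to 0.15), Cyp2c55 (-0.40 to 0.13), Cyp39a1 (-0.17 to 0.40), Cyp3a44 (-0.29 to 0.0037), Gsto1 (-0.40 to 0.0008), Gstp1 (-0.11 to 0.024) and Gstz1 (-0.030 to 0.077), and the cause was not tested.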
